A study of Mus musculus with 4 samples.

Results

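Border macrophages of the spinal cord were looked for among CD45+ cells as cells with RNA of Mrc1 (the mannose receptor CD206) and of at least 2 of Cbr2, Lyve1, Cd163 and Folr2. The choice was made on measured values. A cell barcode had to hold at least 600 genes, at most 10% mitochondrial UMIs, at least 2 UMIs of Mrc1 and at least 1 UMI of 2 or more of those 4 genes. It could hold fewer than 3 of the 6 microglial genes Tmem119, P2ry12, Sall1, Gpr34, Olfml3 and Slc2a5, and no UMI of Cd3e or Cd79a. A UMI is a molecular tag that counts 1 captured RNA molecule once, however often it was amplified. Of 28346 barcodes past the quality filters, 404 met the rule. The standard sham library gave 59 of 5736, the ActD sham library 76 of 2203, the 3 dpi library 235 of 9528 and the 14 dpi library 34 of 10879. All genes that the rule names are given below as a description of the choice, without a test.

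The 4 libraries were made with the 10× Chromium 3′ kit from C57BL/6 mice that were 3 months old, and each condition had 1 library with cells of mice of both sexes mixed. Sham mice (day 0) had the spine opened at the tenth thoracic segment without a blow, and injured mice had a moderate contusion there and were sampled 3 or 14 days post injury (dpi). All mice received flunixin meglumine, ceftiofur sodium and saline after surgery, were perfused with saline, and gave a short piece of cord around the segment, from which live CD45+ cells were sorted. The standard sham library came from the usual enzymatic dissociation, and the ActD sham, 3 dpi and 14 dpi libraries had actinomycin D (ActD), which blocks transcription, in every dissociation step. The matrix headers carry software version 3.0.1 for standard sham and 3 dpi and 3.1.0 for ActD sham and 14 dpi, so dissociation and version cannot be told apart between the sham libraries. Nor can injury day and version be told apart when 3 dpi is set against ActD sham or 14 dpi. The libraries held 60412094, 27447471, 125270696 and 129935880 UMIs, and values below are always given in this order of standard sham, ActD sham, 3 dpi and 14 dpi. The chosen cells held 517619, 804557, 4717149 and 203996 UMIs, with medians of 6289, 10364, 17716 and 4868 per cell. Between 3 and 36 barcodes were shared by any pair of libraries.

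Macrophages at the borders of the central nervous system lie in the meninges, around vessels and in the choroid plexus, outside the neural tissue that microglia occupy. They take up proteins, lipids, iron and debris through scavenger receptors and lectins. In the meninges they are commonly divided into cells that carry Lyve1, a hyaluronan receptor, and cells rich in MHC class II, the molecules that present peptides to CD4 T cells. Class II genes are switched on together by the co-activator CIITA, which acts on factors bound at a shared set of promoter elements, among them an inverted CCAAT box.

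The following promoters are shown because H2-Eb1, H2-DMa and H2-DMb1, which the split into subsets did not use, were lower together with H2-Aa, which it did use, in Lyve1-positive cells. H2-Ab1 and Cd74, also used by the split, are not shown. Each line is the 110 bases before the transcription start in RefSeq (GRCm38.p6), 5′ to 3′ on the strand of the gene, and capitals mark GATTGG, the inverted CCAAT box, or CCAATC, the same letters on the other strand.
H2-Aa (chr17:34287824-34287933, minus strand): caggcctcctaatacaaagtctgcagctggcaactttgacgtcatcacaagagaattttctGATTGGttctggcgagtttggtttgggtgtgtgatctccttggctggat
H2-Eb1 (chr17:34305757-34305866, plus strand): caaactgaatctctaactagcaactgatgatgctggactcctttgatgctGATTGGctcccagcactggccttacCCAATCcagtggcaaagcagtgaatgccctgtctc
H2-DMb1 (chr17:34153081-34153190, plus strand): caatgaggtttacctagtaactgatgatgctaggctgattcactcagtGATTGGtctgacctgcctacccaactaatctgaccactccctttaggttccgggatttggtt
H2-DMa, upstream start (chr17:34122722-34122831, plus strand): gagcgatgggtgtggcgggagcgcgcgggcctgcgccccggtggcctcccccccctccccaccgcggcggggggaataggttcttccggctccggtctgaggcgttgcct
H2-DMa, downstream start (chr17:34125408-34125517, plus strand): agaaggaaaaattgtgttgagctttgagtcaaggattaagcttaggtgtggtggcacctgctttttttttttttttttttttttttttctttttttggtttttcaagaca
GATTGG began 49 bases before the start in H2-Aa, 60 in H2-Eb1 and 62 in H2-DMb1, and H2-Eb1 also held CCAATC 35 bases before it. H2-DMa has 2 starts in the table, and neither window held these letters, so that 3 of 5 windows did. Of 32851 RefSeq promoters of this length, 3039 (9.251%) held these letters on either strand. A match of letters is a description and was not measured as a bound site here.

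The chosen cells made up 1.03% of the standard sham library (95% Clopper-Pearson interval 0.784 to 1.32), 3.45% of the ActD sham library (2.73 to 4.30), 2.47% of the 3 dpi library (2.16 to 2.80) and 0.313% of the 14 dpi library (0.217 to 0.436). Intervals here cover counting error only, and with 1 library per condition no difference between conditions was tested. The order of the shares depended on depth and on how strict the choice was. With every barcode thinned to 2000 UMIs before the choice, 31 of 5380, 65 of 2137, 23 of 8563 and 25 of 10570 barcodes qualified, and the 3 dpi share was 0.269% (0.170 to 0.403). With at least 3 of the 4 genes required, 37, 54, 79 and 24 cells were left. The 14 dpi share was the lowest of the 4 with all UMIs and with at least 3 genes (0.221%), and after thinning (0.237%, 0.153 to 0.349) its interval overlapped that of 3 dpi.

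The 3 dpi cells sat closest to the limits of the rule. Among them, 44 had exactly 2 UMIs of Mrc1, against 5, 0 and 0 in the standard sham, ActD sham and 14 dpi libraries, and 88 further 3 dpi barcodes failed only by having 1 UMI of it, against 2, 0 and 3. Exactly 2 of the 4 genes were seen in 22, 22, 156 and 10 chosen cells, and 30, 9, 267 and 16 barcodes failed only by having 1. Exactly 2 microglial genes were seen in 11, 37, 125 and 10 chosen cells, and 12, 14, 63 and 20 barcodes failed only by having 3. A UMI of Cd3e or Cd79a kept out 16, 3, 20 and 3 barcodes that met every other condition.

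**Figure D1:**
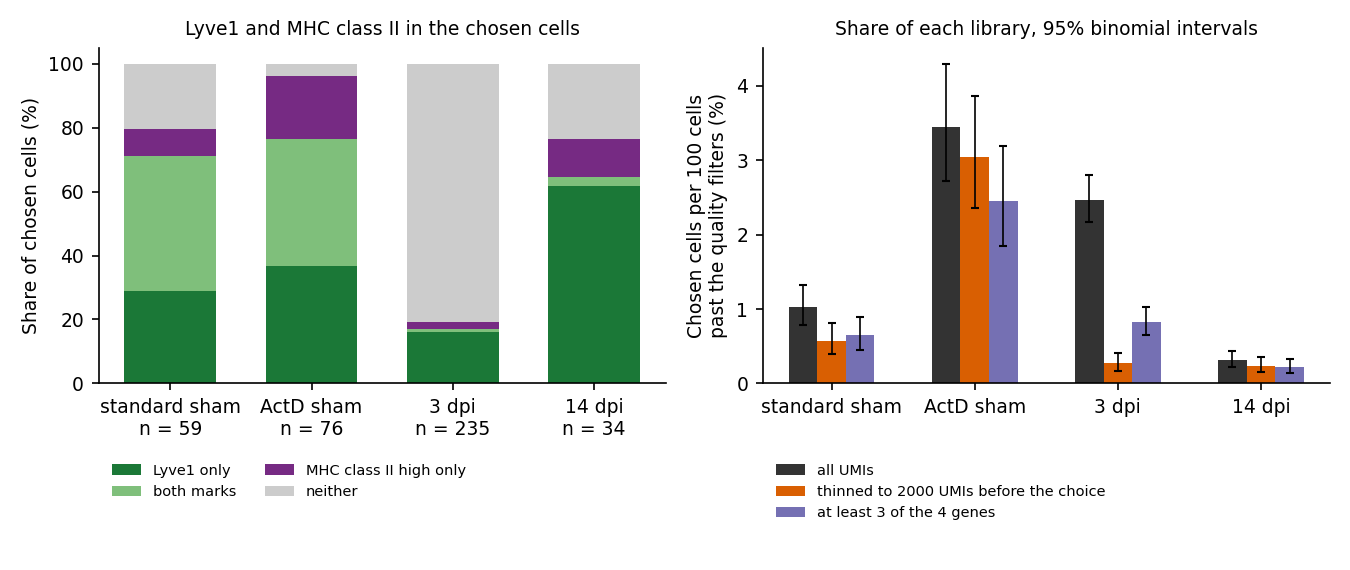
Left, percent of chosen cells in each library with a Lyve1 UMI and class II under 1% of UMIs, with class II at 1% or more and no Lyve1, with both marks and with neither. Right, chosen cells per 100 cells past the quality filters under 3 settings, with bars for 95% binomial intervals. The 3 dpi library had neither mark in 190 of 235 cells, and its share fell to 0.269% after thinning.

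The genes of the choice are given first as a description, since the rule set their presence, and they cannot check the label of border macrophage. Mrc1 stood at 1089.6, 2608, 325 and 1882 CPM in the chosen cells (CPM scales the UMIs of a gene, summed over the cells, to the sum of all their UMIs), and Lyve1 at 459.8, 793, 59.8 and 412 CPM. Cd163, the receptor for haemoglobin bound to haptoglobin, stood at 497, 731, 92.9 and 515 CPM. Cbr2, a carbonyl reductase, stood at 272, 481, 205 and 201 CPM and Folr2, the folate receptor beta, at 298, 654, 175 and 387 CPM. For Mrc1, Lyve1, Cd163 and Folr2 the 3 dpi value was the lowest of the 4 libraries, and Cbr2 at 3 dpi and 14 dpi was near the same level. In the 3 dpi library, 191 of 235 chosen cells had both Cbr2 and Folr2, and only 18 had both Lyve1 and Cd163.

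RNA of Cbr2 and Folr2 was also seen in other cells of the 3 dpi library. Microglia-gated cells (at least 3 of the 6 microglial genes, under 2 UMIs of Mrc1, no Cd3e or Cd79a) had a Cbr2 UMI in 43.3% and a Folr2 UMI in 39.4% of 1240 cells at 3 dpi, at a median of 22034.5 UMIs per cell, and in 0.532% and 0.698% of 3007 cells in standard sham. Lymphoid cells, which had a UMI of Cd3e or Cd79a and none of Csf1r or Mrc1, should lack both genes, and at 3 dpi 5.45% and 3.27% of 459 had one, at a median of 3655 UMIs. After thinning to 2000 UMIs, Cbr2 was seen in 28.9% of the chosen 3 dpi cells, 7.47% of microglia-gated cells and 3.10% of lymphoid cells, and Folr2 in 29.8%, 7.39% and 1.90%. The chosen cells were above both other classes after thinning as well, as a choice on these genes requires.

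Of 22 border macrophage genes that the choice did not use, 21, 22, 21 and 21 had a UMI in the chosen cells of the 4 libraries, though not at the same levels. Pf4, a chemokine of platelets and border macrophages, stood at 2558, 3483, 8437 and 3407 CPM in the chosen cells and at 3.76, 3.8, 1432 and 31.6 CPM in microglia-gated cells. Maf, a transcription factor of tissue macrophages, stood at 582, 1889, 324 and 1623 CPM in the chosen cells. Mgl2, the lectin CD301b, stood at 522, 1230.5, 3.82 and 240.2 CPM, so that it was nearly absent from the 3 dpi cells. Dab2, an adaptor for endocytosis, stood at 798, 1187, 504 and 1250.0 CPM and Stab1, the scavenger receptor stabilin-1, at 578, 968, 563 and 1078 CPM. Pf4 RNA at 3 dpi was also seen outside macrophages, as it stood at 789 CPM in lymphoid cells, of which 80.8% had a UMI.

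The summed profiles were compared across genes whose UMIs in both sums together reached 50, as Pearson correlations of log2(CPM + 1). With the other Csf1r-positive cells of the same library the chosen cells had correlations of 0.78, 0.52, 0.986 and 0.80, in the order standard sham, ActD sham, 3 dpi and 14 dpi, and with microglia-gated cells of the same library 0.83, 0.81, 0.95 and 0.83. Among the chosen cells themselves, standard sham had correlations of 0.57 with ActD sham, 0.72 with 3 dpi and 0.59 with 14 dpi. ActD sham had 0.65 with 3 dpi and 0.81 with 14 dpi, and 3 dpi had 0.70 with 14 dpi. For the 3 dpi and standard sham cells both values within the library were above those with chosen cells of other libraries, while the 14 dpi cells had a higher value with chosen ActD sham cells than with the other Csf1r-positive cells of their own library. The comparisons cover from 1822 to 11429 genes, which are not independent, the sums differ in depth, and profiles of 1 library share its free RNA and its software version. The correlations do not decide the label. Since Mgl2 stood at 3.82 CPM at 3 dpi and 190 of 235 cells there had neither Lyve1 nor high class II, these cells are called cells chosen by the rule.

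**Figure D2:**
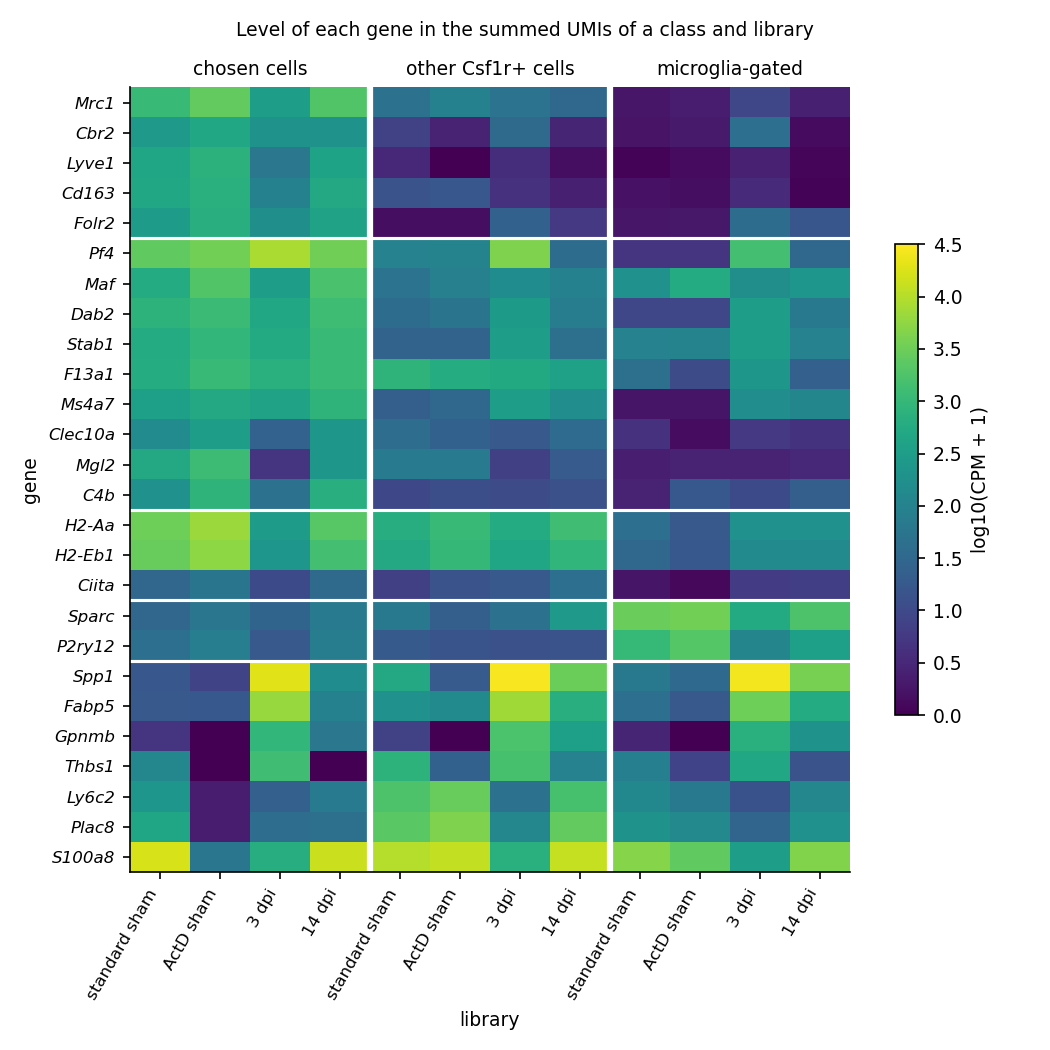
Level of 26 genes as log10(CPM + 1) by colour, with genes in rows and the 4 libraries of each class in columns, for chosen cells, other Csf1r-positive cells and microglia-gated cells; white lines part gate genes, border genes, class II genes with their co-activator, microglial genes and genes of infiltrating or injury-associated cells. The 3 dpi columns of all 3 classes carry Spp1 and Fabp5, and Mgl2 is low in the 3 dpi chosen cells.

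Lyve1 and MHC class II divided the chosen cells differently in each library. A cell was called Lyve1-positive with at least 1 UMI and class II high when H2-Aa, H2-Ab1 and Cd74 made up at least 1% of its UMIs. In standard sham, 17 cells had only Lyve1, 5 only high class II, 25 both and 12 neither. In ActD sham the numbers were 28, 15, 30 and 3, at 3 dpi 38, 5, 2 and 190, and at 14 dpi 21, 4, 1 and 8. Class II high cells were 50.8% (37.5 to 64.1) of the chosen cells in standard sham, 59.2% (47.3 to 70.4) in ActD sham, 2.98% (1.21 to 6.04) at 3 dpi and 14.7% (4.95 to 31.1) at 14 dpi. These intervals cover the counting of cells in 1 library each and test no difference between conditions. After thinning to 2000 UMIs before the choice, standard sham had 38.7% and 14 dpi 8%, and 14 dpi had 8.33% with at least 3 of the 4 genes. Lyve1, one of the genes of the choice, was seen in 71.2%, 76.3%, 17.02% and 64.7% of the cells, and at least 2 of its UMIs in 40.7%, 65.8%, 12.8% and 44.1%.

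Few cells lay near the limit on class II. The share ran from 0 to 8.18% of UMIs in standard sham, with a median of 1.04%, and from 0 to 8.45% in ActD sham, with a median of 2.83%. At 3 dpi the median was 0.0324%, with single cells up to 5.93%, and at 14 dpi 0.0337%, with single cells up to 5.99%. Just inside the limit, with 1 to 1.5%, lay 1, 1, 0 and 0 cells, and just outside, with 0.5 to 1%, lay 4, 5, 6 and 2 cells. Lyve1 calls depended more on depth, since after thinning of the chosen cells to 2000 UMIs 47.5%, 51.4%, 7.23% and 55.9% had a Lyve1 UMI. The share of lymphoid cells with a Lyve1 UMI was 0%, 0%, 1.09% and 0.285% of 688, 80, 459 and 1051 cells, at medians of 4144, 6554, 3655 and 4924 UMIs. With 3 cells as the limit that a count of 0 allows, the shares could be up to 0.436% in standard sham and 3.75% in ActD sham.

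**Figure D3:**
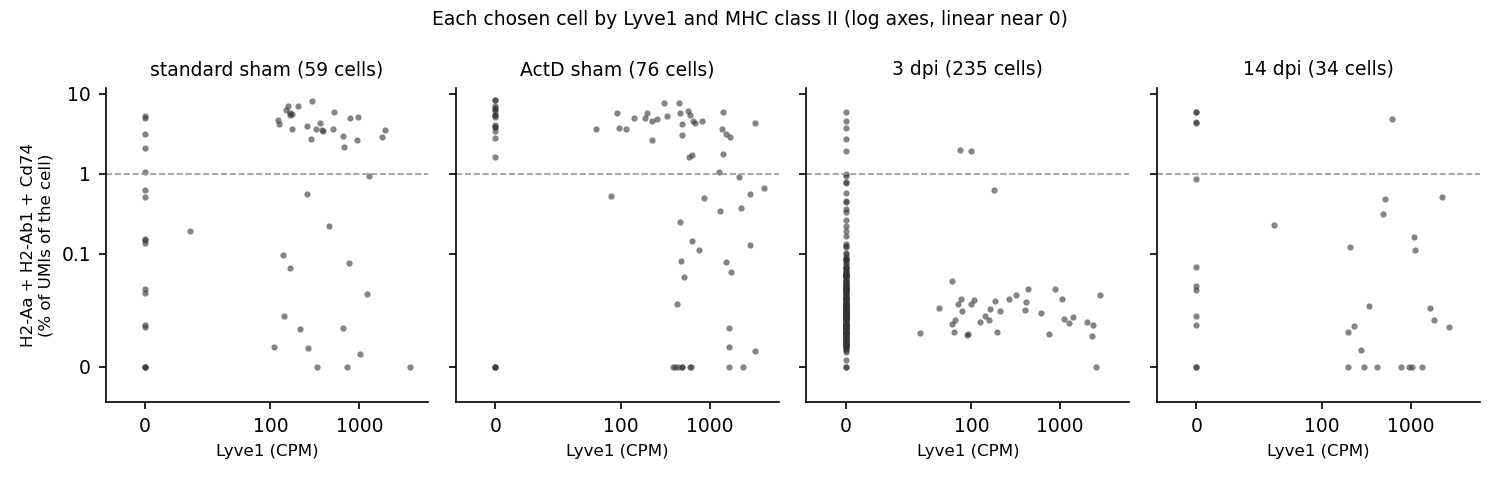
Each chosen cell by its Lyve1 level (CPM, horizontal) and its share of UMIs from H2-Aa, H2-Ab1 and Cd74 (percent, vertical), 1 panel per library, on log axes that are linear near 0. Cells with both marks fill the upper right of the sham panels (25 and 30 cells), and the 3 dpi and 14 dpi panels hold 2 and 1 of them.

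Genes beyond the split were compared between cells with only Lyve1 and cells with only high class II, with UMIs summed per subset and library and the library as a block. The class II genes H2-Eb1, H2-DMa and H2-DMb1, which the split had not used, were lower with Lyve1. Fcna, a complement lectin, and Ltc4s, an enzyme of leukotriene synthesis, were higher. Of 13 tested chemokines and cytokines, 2 were higher and 1 lower. Of 2060 genes tested, 11 (0.534%) were higher and 10 (0.485%) lower in Lyve1-positive cells at an adjusted p under 0.05 (edgeR quasi-likelihood test, Benjamini-Hochberg), and 192 had an unadjusted p under 0.05. The sums rest on 5, 15, 5 and 4 class II high cells, so only ActD sham had 10 or more in both subsets. The subsets were cut from the same cells that were then tested, and 20 genes were higher and 9 lower without ActD sham, against 9 to 12 higher and 10 to 13 lower without any other library.

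H2-Eb1, the beta chain of the class II molecule I-E (chr17:34305867-34316674 in GRCm38, plus strand), stood at 97.7, 267, 77.1 and 106 CPM in Lyve1-positive cells and at 7156, 11460.2, 6433 and 8449.8 CPM in class II high cells (log2 difference -6.09 ± 0.20 (SE), edgeR adjusted p = 5.9e-17). H2-DMa, part of the H2-DM complex that loads peptides onto class II, stood at 27.1, 154, 53.5 and 90 CPM against 827, 933, 428 and 671 CPM (log2 difference -3.22 ± 0.34 (SE), edgeR adjusted p = 7.2e-07). H2-DMb1, its partner chain, stood at 59.7, 178, 56.7 and 57.2 CPM against 445, 964, 648 and 711 CPM (log2 difference -3.11 ± 0.31 (SE), edgeR adjusted p = 3.5e-07). In alternative fits, H2-DMa was called in all 16 that tested it. H2-Eb1 and H2-DMb1 were called in 16 of 17, with the smallest log2 differences at -2.70 and -1.73. The 3 genes had lower summed levels in Lyve1-positive than in class II high cells in each of the 4 libraries. They were 3 of 5 tested genes of antigen presentation, with a list median of -3.11 against 0.02 over all genes, and the other 2 were Ctss, which cuts the invariant chain, at -0.33 (adjusted p = 0.53 in edgeR) and Cd86, a co-stimulatory ligand, at -0.30 (adjusted p = 0.9 in edgeR). Ciita was below the filter and stood at 10.9, 6.85, 1.57 and 8.18 CPM against 63.6, 148, 73.4 and 237 CPM, higher in class II high cells in every library on 2 to 24 UMIs each.

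Fcna, a lectin (ficolin A) that starts the lectin pathway of complement, stood at 450.5, 267, 309 and 90 CPM in Lyve1-positive cells and had no UMI in class II high cells of any library. Summed over the libraries it had 368 UMIs against 0, at least 29.9-fold higher in CPM with 3 UMIs as the limit over the group (edgeR adjusted p = 3.1e-06). With no UMI in class II high cells, Fcna passed the filter on counts only through the Lyve1-positive cells, which limits what its p can mean. Ltc4s, leukotriene C4 synthase, stood at 439.6, 780.4, 450.2 and 425 CPM against 127, 161, 24.5 and 158 CPM (log2 difference 2.29 ± 0.38 (SE), edgeR adjusted p = 0.00078). It was higher with Lyve1 in every library, and its call held whichever library was left out, while Fcna held in the 3 such fits that tested it and was not tested without ActD sham. Ccl24, an eosinophil attractant, stood at 413, 181, 244 and 556 CPM against 31.8, 55.6, 48.9 and 0 CPM (log2 difference 2.47 ± 0.44 (SE), edgeR adjusted p = 0.0018). It was called in 11 of 16 alternative fits that tested it, with log2 differences from 0.87 to 3.27. Like Fcna, Ccl24 passed the filter on counts only through the Lyve1-positive cells, which limits what its p can mean. Ccl8, a ligand of chemokine receptors, stood at 54.3, 602, 529 and 335 CPM against 0, 80.3, 0 and 158 CPM (log2 difference 3.05 ± 0.53 (SE), edgeR adjusted p = 0.003), and its call was lost without standard sham (edgeR adjusted p = 0.068). Over 16 alternative fits Ccl8 was called in 10, with log2 differences from 0.13 to 3.55. C4b, a complement component, stood at 282, 1218, 241 and 842 CPM against 95.4, 426, 0 and 79 CPM (log2 difference 2.15 ± 0.44 (SE), edgeR adjusted p = 0.014), also lost without standard sham (edgeR adjusted p = 0.12). C4b was called in only 9 of 17 alternative fits, with log2 differences from 1.33 to 3.26.

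Other genes higher with Lyve1 were Dstn, which takes actin filaments apart (log2 difference 1.58, edgeR adjusted p = 0.013), Ecm1, Serpinb6a, Hgsnat and Mtss1, at 1.88, 1.83, 1.53 and 1.92. Dstn was called in 12 of 16 alternative fits that tested it, with log2 differences down to 0.32, and Ecm1 in 8 of 11, down to 0.39. Mtss1 was named after its value was seen, as the last of the 11. Serpinb6a and Hgsnat lost their calls without 3 dpi (edgeR adjusted p = 0.071 and 0.13), and Hgsnat also without ActD sham (0.23 in edgeR). Over 16 alternative fits, Serpinb6a was called in 10 and Hgsnat in 6. Cd209f, a lectin of the DC-SIGN family, was not tested, with 118 UMIs against 0 over the libraries, at least 9.58-fold higher in CPM on the same limit, and 110 of the 118 came from ActD sham. Of 17 tested border macrophage genes that the choice did not use, Fcna, Ccl24 and Ccl8 were higher, 11 had an unadjusted p under 0.05, and the list median was 0.90. Fcna and Ccl24 passed the filter on counts only through their Lyve1-positive sums. Mgl2, a lectin of the same list, went the other way, at 299, 900.2, 1.57 and 139 CPM against 1177, 1248, 135 and 908 CPM, lower in all 4 libraries but not called (log2 difference -2.02 ± 0.63 (SE), edgeR adjusted p = 0.35). It was called lower by DESeq2 (adjusted p = 0.0045), and by edgeR without 3 dpi (adjusted p = 0.0057) or without ActD sham (adjusted p = 4.8e-05). Stab1 differed by 1.09 (edgeR adjusted p = 0.069) and Pf4 by 0.60 (edgeR adjusted p = 0.12).

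Other gene groups are given by their counts, beside 0.534% higher and 0.485% lower over all genes tested, at which a list of this size would hold few calls or none. Of 13 chemokines and cytokines, Ccl8 and Ccl24 were higher and Il1b lower with Lyve1, and of 9 complement genes C4b was higher. Among these, Ccl24 passed the filter on counts only through its Lyve1-positive sums. None of 21 immediate early genes was called by edgeR or DESeq2, and 5 had an unadjusted p under 0.05. None of 11 interferon response genes was called by edgeR or DESeq2, and 0 had an unadjusted p under 0.05. Of 9 genes of a list made for heme and iron handling 0 were called by either tool, with 0 at an unadjusted p under 0.05.

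Lcn2, an iron-binding protein that neutrophils make in quantity, was the gene with the lowest p among those higher with Lyve1 (log2 difference 5.31 ± 0.58 (SE), edgeR adjusted p = 1.2e-06), at 1368, 20.5, 159 and 2764 CPM against 0, 6.18, 0 and 79 CPM. It moved with neutrophil RNA. The 9 genes of a neutrophil list summed to 38993, 243, 7079 and 68452 CPM in Lyve1-positive cells and to 1177, 247, 220.2 and 829 CPM in class II high cells, with S100a8 or S100a9 the most abundant. Of the chosen cells, 4, 0, 4 and 1 held at least 1% of their UMIs in these genes, with up to 29.6% in standard sham and 32.6% at 14 dpi. Without these 9 cells Lcn2 stood at 12.9, 12.4, 11.8 and 44.8 CPM over all chosen cells and no longer passed the filter on counts, while Fcna, Ltc4s, Ccl24, Ccl8, Dstn and C4b were still called (edgeR adjusted p = 8.9e-05, 0.00065, 0.0063, 0.014, 0.045 and 0.024).

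Besides the class II genes, 7 genes were higher in class II high cells. Ccr2, the receptor that brings monocytes out of the bone marrow, stood at 10.9, 30.8, 61.4 and 73.6 CPM in Lyve1-positive cells against 0, 229, 220.2 and 355 CPM in class II high cells (log2 difference -2.25 ± 0.40 (SE), edgeR adjusted p = 0.0019). In standard sham the direction was the other way, on 2 UMIs against 0, and without ActD sham Ccr2 was below the filter on counts and not tested. Plbd1, a lysosomal hydrolase, stood at 81.4, 17.1, 22 and 24.5 CPM against 95.4, 303, 171 and 118 CPM (log2 difference -2.71 ± 0.49 (SE), edgeR adjusted p = 0.003). Il1b, which encodes the cytokine interleukin-1β, stood at 733, 0, 425 and 24.5 CPM against 1940.1, 0, 2104 and 79 CPM (log2 difference -1.91 ± 0.34 (SE), edgeR adjusted p = 0.0019), and its call was lost without 3 dpi (edgeR adjusted p = 0.17). Axl, a receptor for dying cells, differed by -1.52 (edgeR adjusted p = 0.041) but not in the 3 dpi library, where it stood at 29.9 and 24.5 CPM, and the call was lost without standard sham or 14 dpi (0.21 and 0.15 in edgeR). Lsp1, Gm2a and Rel, at -1.43, -1.39 and -1.77, were each lost without 3 dpi (edgeR adjusted p = 0.22, 0.61 and 0.41). Lsp1 was also lost without ActD sham (0.43 in edgeR), and Gm2a and Rel without 14 dpi (0.096 and 0.054 in edgeR). Of the alternative fits that tested them, Ccr2 was called in 10 of 11, Plbd1 in 10 of 15 and Il1b in 11 of 16. Fewer called the rest, with Lsp1 in 5 of 16, Gm2a in 3 of 16, Axl in 4 of 14 and Rel in 4 of 15.

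The 5 class II high cells of the 3 dpi library differed from those of the other libraries. Ccr7, the receptor that guides cells to lymph nodes, stood at 0, 0, 379 and 0 CPM in the class II high cells of the 4 libraries, and Ccl22, a chemokine of mature dendritic cells, at 0, 0, 917 and 0 CPM. Ccl17 had 16 UMIs in these cells and none in any Lyve1-positive cell, at least 21.9-fold higher in CPM over the 4 libraries. A list of 10 dendritic cell genes summed to 563 CPM in these 5 cells, with Ccr7 the most abundant and 3 of 10 genes seen, against 63.6, 167 and 0 CPM in the class II high cells of the other libraries. With barcodes of high doublet score removed, 17 chosen cells left the 3 dpi library and 2 the 14 dpi library. The 3 dpi library then held 2 of its 5 cells with only high class II and dropped out of the fit, which called 3 genes higher and 5 lower, H2-Eb1, H2-DMa and H2-DMb1 among them.

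**Figure D4:**
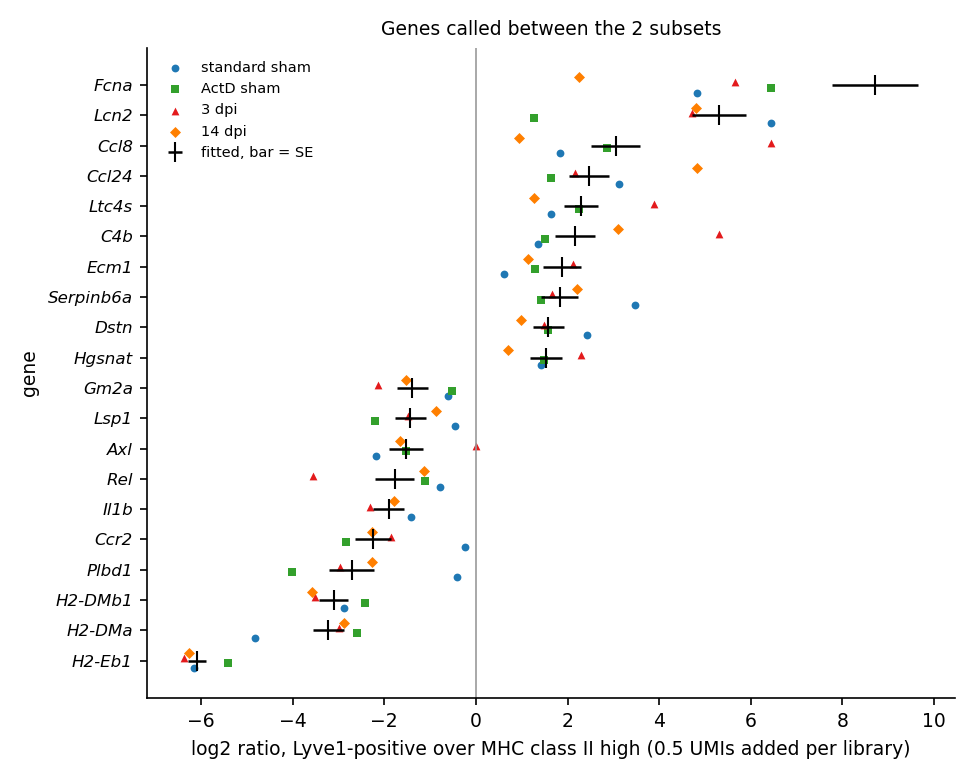
Log2 ratio of Lyve1-positive over class II high cells for 20 called genes, with 1 point per library (0.5 UMIs added) and the fitted difference with its SE in black. H2-Eb1, H2-DMa and H2-DMb1 are below 0 in every library; the fitted value of Fcna depends on the prior count, since its class II high sums are 0.

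Set against microglia-gated cells of the same libraries, the chosen cells were higher in genes such as Mrvi1, Clec4a2 and Pid1 and lower in 9 of 10 tested microglial genes. Of 11630 genes tested, 228 (1.96%) were higher and 380 (3.27%) lower (edgeR, library as a block), and genes that either gate used are not counted. Both classes were cut from these data by Mrc1 and the microglial genes, so genes that vary together with these can differ through the gates themselves. The counts were 586 and 757 without 3 dpi, 108 and 229 without standard sham, and 76 and 228 without 14 dpi. The genes with the lowest p among the higher ones kept their calls whichever library was left out. Mrvi1, which regulates calcium release, stood at 11.6, 34.8, 1.06 and 19.6 CPM against 0.116, 0.781, 0.0331 and 0.0984 CPM (log2 difference 6.16 ± 0.65 (SE), edgeR adjusted p = 0.00021). Mrvi1 passed the filter on counts only through the chosen cells, which limits what its p and its kept calls can mean. Clec4a2, an inhibitory lectin receptor, stood at 272, 318, 99.8 and 284 CPM against 84.2, 101, 35 and 39.5 CPM (log2 difference 1.90 ± 0.22 (SE), edgeR adjusted p = 0.00039), and its neighbour Clec4a3 at 102, 313, 61.1 and 240.2 CPM against 32.4, 58.7, 25.9 and 48.5 CPM. Pid1 stood at 216, 383, 219.6 and 275 CPM against 52.5, 74.3, 86.8 and 58.3 CPM (log2 difference 1.98 ± 0.24 (SE), edgeR adjusted p = 0.0005). In each of these genes every library was higher in the chosen cells, 3 dpi included.

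Uptake genes were part of this difference. Ap2a2, a subunit of the clathrin adaptor, stood at 145, 387, 153 and 299 CPM against 38.3, 67.8, 64 and 34.8 CPM (log2 difference 2.17 ± 0.27 (SE), edgeR adjusted p = 0.00089). Fcgrt, which returns albumin and IgG from endosomes, differed by 2.30 (edgeR adjusted p = 0.0013). Stab1 stood at 578, 968, 563 and 1078 CPM against 98.6, 104, 334 and 96 CPM (log2 difference 2.52 ± 0.46 (SE), edgeR adjusted p = 0.02), and Mertk, a receptor for dying cells, was lower by a log2 difference of -1.43 (edgeR adjusted p = 0.047). Of 16 tested uptake genes, Ap2a2, Fcgrt and Stab1 were higher and Mertk lower, with a list median of 2.24 against -0.07 over all genes. Stab1 lost its call without standard sham (edgeR adjusted p = 0.12) or without 14 dpi (0.17), and so did Mertk (0.28 and 0.25 in edgeR).

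Of 20 tested border macrophage genes that the choice did not use, 5 were higher in edgeR, 15 had an unadjusted p under 0.05, and DESeq2 called 19. Maf stood at 582, 1889, 324 and 1623 CPM against 191, 597, 165 and 229 CPM (log2 difference 1.75 ± 0.29 (SE), edgeR adjusted p = 0.004), and its call held whichever library was left out. Ccl8 stood at 34.8, 275, 341 and 279 CPM against 0.271, 0.469, 5.69 and 2.72 CPM (log2 difference 6.95 ± 0.72 (SE), edgeR adjusted p = 0.012), Nrp1, a co-receptor for semaphorins, differed by 1.43 (edgeR adjusted p = 0.0081) and Igfbp4 by 2.69 (edgeR adjusted p = 0.039). Without 14 dpi the edgeR adjusted p was 0.088 for Ccl8, 0.053 for Nrp1 and 0.16 for Igfbp4, and without standard sham 0.11 for Ccl8 and 0.25 for Igfbp4. Pf4 differed by 7.46 with an edgeR adjusted p of 0.24, which was 0.0014 without 3 dpi, where 14 of 21 genes of the list were called. At 3 dpi Pf4 was 8437 CPM in the chosen cells and 1432 CPM in microglia-gated cells, a smaller ratio than in the other libraries.

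Microglial genes beyond the gate were lower, as 9 of 10 tested passed with a list median of -2.87. The gates parted the classes by other microglial genes, so this direction was partly set by the choice. Sparc, a matrix protein, stood at 29, 58.4, 26.9 and 73.5 CPM against 2971, 3461, 556 and 1749.6 CPM (log2 difference -5.36 ± 0.42 (SE), edgeR adjusted p = 2.3e-05). Cx3cr1, the fractalkine receptor, stood at 178, 410.2, 104 and 613 CPM against 1827, 4814, 919 and 1999 CPM (log2 difference -2.97 ± 0.33 (SE), edgeR adjusted p = 0.00025). Among genes outside the lists, Lag3, Tjp1, Atp8a2 and Lrrc3 had the lowest p, with log2 differences of -5.02, -4.38, -7.30 and -5.16, all called whichever library was left out. Of the list, Selplg and Trem2 lost their calls without standard sham or 14 dpi (edgeR adjusted p = 0.19 and 0.24 for Selplg, 0.056 and 0.082 for Trem2), and Cst3 without standard sham (0.091 in edgeR). The chosen cells were on the lower side for Sparc and Cx3cr1 in every library, 3 dpi included.

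Some signalling and regulatory genes passed the test against microglia-gated cells and most of those tested did not, where 1.96% of all tested genes were higher and 3.27% lower. Of 22 chemokines and cytokines, Ccl6, Ccl8, Ccl9 and Il10 were higher and Cxcl10 and Tnfsf13b lower. Ccl9 stood at 332, 307, 1027 and 343 CPM against 195, 123, 233 and 90.7 CPM (log2 difference 1.52 ± 0.26 (SE), edgeR adjusted p = 0.0046), and Tnfsf13b, which encodes the B cell survival factor BAFF, at 9.66, 16.2, 3.18 and 4.9 CPM against 42.3, 82.4, 12.7 and 33.5 CPM (log2 difference -2.15 ± 0.27 (SE), edgeR adjusted p = 0.00069). Il10 differed by 4.51 and lost its call without standard sham or 14 dpi (edgeR adjusted p = 0.15 and 0.11), and Ccl6 without standard sham (0.094 in edgeR). The Il10 value rested on few UMIs, with 8, 1, 35 and 0 in the chosen cells without those rich in neutrophil RNA. Of 21 transcription factors, Maf and Tfec were higher and Sall3 and Bhlhe41 lower. Of 11 growth factor genes, Pdgfc was higher and Pdgfb lower, with log2 differences of 2.99 and -2.41. Of 12 genes of a list made for heme and iron handling, Blvrb, a biliverdin reductase, and Slc48a1, a heme transporter, were higher, at 2.02 and 0.88. Hpgds was lower and was on that list, though it encodes a prostaglandin D synthase and not a heme or iron protein. Pdgfc and Blvrb lost their calls without 14 dpi (edgeR adjusted p = 0.085 and 0.092), and Blvrb also without standard sham (0.06 in edgeR). Slc48a1 was called only with all 4 libraries or without 3 dpi (edgeR adjusted p = 0.062, 0.06 and 0.079 without standard sham, ActD sham and 14 dpi).

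Between libraries only levels and log2 ratios of CPM (0.5 UMIs added) can be given, without a test, and all 3 comparisons with ActD sham share its cells. A gene counts as higher or lower when its log2 ratio is at least 1 in size. In standard sham over ActD sham, 7.42% of 3546 genes were higher and 14.9% lower, with a median of -0.34, and TMM scaling moved these shares to 9.67% and 7.42% and the median to -0.02. In microglia-gated cells 7.23% were higher and 19.9% lower. All 23 measured immediate early genes were higher in the standard sham cells, with a median of 4.33 in the chosen cells and 5.67 in microglia-gated cells. Fos stood at 3479, 68.4, 1206 and 142 CPM, Jun at 5373, 279.7, 586 and 191 CPM and Atf3, a stress-induced factor, at 2444, 11.2, 353 and 34.3 CPM. The 3 dpi cells, which were made with ActD, lay between standard sham and the other 2 libraries for all 3 genes. Cxcl2, a neutrophil attractant, stood at 7389.6, 12.4, 1632 and 58.8 CPM and Il1b at 823, 3.73, 357 and 29.4 CPM, both highest in standard sham and next at 3 dpi. Without the 9 cells rich in neutrophil RNA, Fos stood at 4299, 68.4, 1203 and 72.8 CPM and Cxcl2 at 9344, 12.4, 1618 and 11.2 CPM, so that ActD sham and 14 dpi lay close together for both. Interferon response genes went the other way, as 19 of 20 were lower in standard sham with a median of -2.57, against -1.96 in microglia-gated cells, and Ifit3 stood at 23.2, 303, 1.27 and 132 CPM.

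The chosen 3 dpi cells carried genes of injury-associated macrophages at high levels. In 3 dpi over ActD sham, 12.7% of 7390 genes were higher and 18.9% lower, with a median of -0.18, and TMM scaling moved these shares to 21.3% and 9.97% and the median to 0.24. In microglia-gated cells 11.2% were higher and 35.2% lower. Spp1 (osteopontin) stood at 15.5, 7.46, 19742 and 152 CPM in the chosen cells, Fabp5, a fatty acid carrier, at 17.4, 16.2, 6379 and 93.1 CPM, and Hmox1, which breaks down heme, at 274, 124, 5127 and 225 CPM. Gpnmb, a membrane protein of lipid-laden macrophages, stood at 3.86, 0, 935 and 58.8 CPM, at least 251-fold above ActD sham at 3 dpi with 3 UMIs as the limit, and Thbs1 (thrombospondin-1) at 122, 0, 1332 and 0 CPM, or 7.72, 0, 1336 and 0 CPM without the cells rich in neutrophil RNA. Of 16 genes of monocytes and injury-associated macrophages, 14 were higher at 3 dpi, with a median of 6.68, or 6.11 with genes at 0 UMIs set to their limit, and the median in microglia-gated cells was 5.46.

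These genes were seen in every class of the 3 dpi library. Spp1 stood at 28818 CPM in other Csf1r-positive cells, 26847 CPM in microglia-gated cells and 5443 CPM in lymphoid cells, with a UMI in every lymphoid cell. The part of free RNA in the levels of the chosen cells was not tested. The levels were lowest in cells with all 4 of the border genes. Spp1 stood at 23007 CPM in the 156 cells with 2 of the 4 genes, 14891 CPM in the 63 with 3 and 3601 CPM in the 16 with all 4. Fabp5 stood at 6914, 6183 and 1260.0 CPM, and Gpnmb at 964, 1043 and 169 CPM. In the 16 cells Spp1, Fabp5 and Gpnmb were at or below the levels of lymphoid cells (5443, 1286 and 284 CPM), while Hmox1 (3095 against 840.2 CPM) was above its level there.

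Of 22 border genes outside the choice, 14 stood highest in the same 16 cells, 5 in the cells with 3 genes and 2 in those with 2, and Cd209b had no UMI. The same count over all genes is not given, so this count has no background and is a description only. The 16 cells held 290472 UMIs, against 3223302 in the cells with 2 genes. All 16 cells were Lyve1-positive by the choice itself. Fcna stood at 8.69, 42.4 and 537 CPM in cells with 2, 3 and 4 genes, and Ccl8 at 191, 432 and 1628 CPM. Ltc4s, at 53.7, 104 and 692 CPM, and C4b, at 14.9, 48.2 and 389 CPM, are not on that list. These 4 genes were among those called higher with Lyve1 above. These levels were higher with each further gene, while those of Pf4 lay close together (8199, 8908 and 9119.6 CPM). Mgl2 did not follow, at 1.86, 9.97 and 0 CPM, and Cd209f had 3 UMIs in all 235 cells. Cells with more of the 4 genes were chosen on values of these cells, so no test was made.

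Genes of antigen presentation and of the interferon response were lower at 3 dpi. H2-Aa stood at 3232, 6676, 298 and 2103 CPM and Cd74, the invariant chain, at 11809.8, 15534, 815 and 4431 CPM in the chosen cells. Of 7 antigen presentation genes beyond the split, 6 were lower at 3 dpi than in ActD sham and the other, Ctss, stood at 3553 CPM against 2508 CPM. The list had a median log2 ratio of -2.56, against -1.03 in microglia-gated cells. All 22 interferon response genes were lower, with a median of -2.89, against -1.61 in microglia-gated cells. Of 21 border macrophage genes beyond the choice, 12 were lower and 1 higher, with a median of -1.21, whereas the median in microglia-gated cells was 3.38. In the chosen cells of standard sham over ActD sham, 9 of 21 were also lower and 1 higher, with a median of -0.84. Pla2g2d, a secreted phospholipase, stood at 100.5, 225, 0 and 68.6 CPM, Hpgd, which breaks down prostaglandins, at 299, 628, 12.1 and 441 CPM, and Cp (ceruloplasmin) at 112, 287, 2.54 and 123 CPM. Vtn (vitronectin) stood at 1.93, 168, 0.212 and 0 CPM, so that ActD sham stood above the other libraries, and pericyte and endothelial genes of a list of 10 summed to 144.2 CPM there against 15.5, 16.3 and 44.1 CPM, with Rgs5 the most abundant. The part of such cells in the Vtn value was not tested. Glycolysis genes were higher at 3 dpi in 13 of 14, with a median of 2.56, or 2.29 with the gene at 0 UMIs set to its limit, and in microglia-gated cells in 11 of 14, with a median of 1.86. Ldha stood at 182, 176, 644 and 167 CPM in the chosen cells, or 113, 176, 646 and 134 CPM without the cells rich in neutrophil RNA.

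Border genes of the 34 chosen cells of the 14 dpi library were near the levels of ActD sham, and some class II genes were lower. In 14 dpi over ActD sham, 2.4% of 2920 genes were higher and 5.14% lower, with a median of -0.03, and in microglia-gated cells 5.33% were higher and 16.8% lower. The border macrophage genes had a median of -0.22, with 4 of 21 lower and 1 higher. Of 6 antigen presentation genes beyond the split 3 were lower and 0 higher, with a median of -0.93, against -0.44 in microglia-gated cells. In the chosen cells of standard sham over ActD sham this list had a median of -0.95, with 1 of 6 lower and 0 higher, so a median this low was not particular to 14 dpi. The 3 class II genes that defined the split, given as a description, had a median of -1.81, and of 2.67 in microglia-gated cells. H2-Eb1 stood at 2788, 5413, 234 and 1402 CPM in the chosen cells and at 31.7, 16, 139 and 142 CPM in microglia-gated cells. Interferon response genes were lower in 8 of 21, with a median of -0.89, and Siglec1, a lectin induced by interferon, stood at 7.73, 143, 29.5 and 58.8 CPM. Mgl2 and Cd209f, at 522, 1230.5, 3.82 and 240.2 and 9.66, 143, 0.636 and 4.9 CPM, were also lower than in ActD sham, and Spp1 and Gpnmb were above it. A list of 10 genes that the study named for homeostatic macrophages, chosen on these same libraries and so no independent evidence of a direction, was lower in 6 of 10 at 14 dpi (median -1.49), 10 of 10 at 3 dpi (-3.58) and 5 of 10 in standard sham (-0.92). It holds the 3 class II genes of the split, which are 3 of the 6 at 14 dpi. Set against 3 dpi, 17.4% of 6928 genes were higher and 16.3% lower at 14 dpi, moved to 8.03% and 25.8% by TMM scaling, with 13.5% and 11.4% in microglia-gated cells. Thbs1 had no UMI at 14 dpi and was at least 90.6-fold lower than at 3 dpi.

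Neutrophil genes were high in the chosen cells of standard sham and 14 dpi. S100a9 stood at 17588, 90.7, 632 and 15559 CPM and S100a8 at 17192, 58.4, 625 and 13731 CPM in the chosen cells. Without the cells with at least 1% of UMIs in the neutrophil list, S100a9 stood at 296, 90.7, 161 and 459 CPM and Chil3, a gene of neutrophils and monocytes, at 5.15, 3.73, 372 and 11.2 CPM, against 852, 3.73, 381 and 1015 CPM with them. Of all chosen standard sham cells 4 carried this RNA, and at 14 dpi 1 cell did. Border genes were little moved, with Mrc1 at 1369, 2608, 324 and 2088 CPM and Pf4 at 3059, 3483, 8473 and 3700.0 CPM without these cells. B cell genes summed to 239.6, 246, 48.1 and 167 CPM (5, 4, 8 and 4 of 8 genes with a UMI, Ighm the most abundant except at 3 dpi), and genes of T and NK cells to 352, 7.46, 26.1 and 103 CPM. These sums include the cells rich in neutrophil RNA. Nkg7, a gene of T and NK cells, stood at 255 CPM in standard sham with those cells and at 92.6 CPM without them. Dendritic cell genes summed to 67.6, 117, 48.1 and 49.0 CPM, with 7, 7, 10 and 4 of 10 having a UMI.

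**Figure D5:**
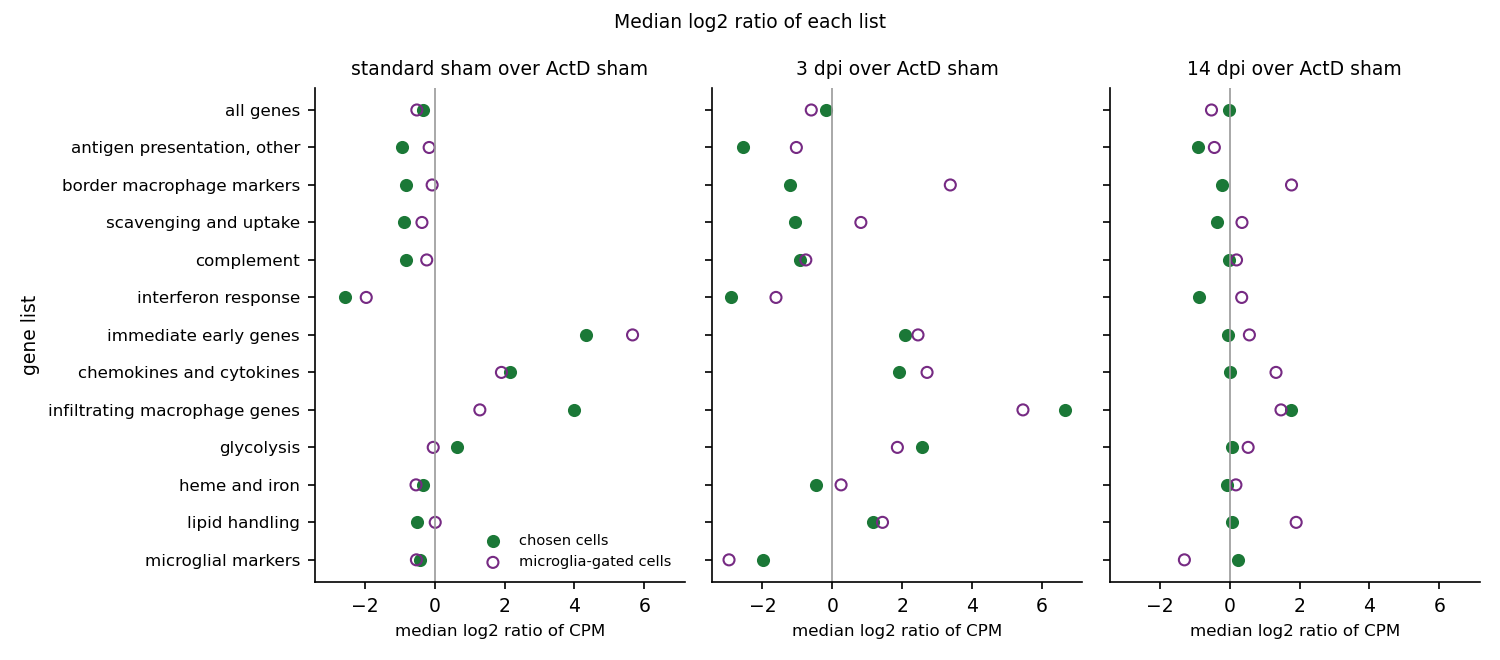
Median log2 ratio of CPM for 12 gene lists and for all genes in 3 comparisons with ActD sham, filled for chosen cells and open for microglia-gated cells. Medians of immediate early genes lie at 4.33 in standard sham and 2.10 at 3 dpi, those of antigen presentation genes beyond the split lie below 0 for chosen cells in all 3 panels, and the value for infiltrating macrophage genes in standard sham (3.99) was -0.03 without cells rich in neutrophil RNA.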

How the data were processed

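RNA of CD45+ cells from 4 libraries was analysed, 1 per condition. The authors made the deposited matrices of UMI counts per gene and barcode with Cell Ranger on mm10, as named in the submitters' processing notes. The matrix headers carry versions 3.0.1 and 3.1.0. Counts were used as deposited. A barcode was kept if it held 600 genes or more and mitochondrial UMIs did not exceed 10%. UMIs were summed per library and class and tested with edgeR 4.0.16 (quasi-likelihood, TMM factors, filter on low counts, library as a block) in R 4.3.3, with adjustment over all genes tested and a threshold of 0.05. DESeq2 1.42.0 was an alternative. Both fits were tested on simulated counts. The subset comparison was planned for libraries with at least 10 cells in both subsets, which only ActD sham had, so the minimum was set to 4 cells after the data were seen. Levels are CPM and ratios had 0.5 UMIs added, over genes with at least 50 UMIs in both sums together. Python 3.11.15, NumPy 2.4.6, pandas 2.3.3, SciPy 1.17.1, scanpy 1.11.5 and matplotlib 3.10.9 were used.

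Doublets were scored with Scrublet, and the highest scores, 0.8% for each 1000 barcodes, were removed only as an alternative. Mice of a library could not be told apart by donor, so the fits measure the spread between libraries that differ in condition and dissociation. The members and gene lists were chosen with earlier results of these data known. Genes of the lists could be named, with the 10 lowest p-values in each direction of a test and the 10 largest and 10 smallest ratios between libraries with at least 100 UMIs. Genes used by the choice or the split were left out of the counts of called genes.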

Additional observations from a re-analysis of the deposited data

How the results depend on the processing

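Between Lyve1-positive and class II high cells (11 higher, 10 lower), 51 and 23 genes were called with no filter on low counts, 1 and 3 with no library block, 3 and 5 with doublets removed, 7 and 5 with cells of both marks counted as Lyve1-positive, and 7 and 3 with at least 2 UMIs of Lyve1. The number higher was 6 with cells of both marks counted as class II high, 4 with a class II limit of 0.5% and 31 after thinning to 2000 UMIs, and the number lower was 6 without cells rich in neutrophil RNA. Leaving out 1 library gave 9 to 20 higher and 9 to 13 lower. Against microglia-gated cells (228 and 380), DESeq2 called 472 higher, no library block gave 44 and 79, and leaving out 1 library gave 76 to 586 higher and 228 to 757 lower.

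Chosen cells were 0.645% of standard sham, 2.45% of ActD sham and 0.829% of 3 dpi with at least 3 of the 4 genes. After thinning they were 0.576% of standard sham and 0.269% of 3 dpi. At 3 dpi they were 2.83% with stricter quality filters and likewise 2.83% without cells rich in neutrophil RNA. Class II high cells at 3 dpi were 0% after thinning before the choice and 0.917% with doublets removed. At 14 dpi they were 8% and 8.33% after thinning before the choice and with at least 3 of the 4 genes. Lyve1-positive cells were 89.2%, 98.1%, 40.5% and 83.3% with at least 3 of the 4 genes, and 30.4% at 3 dpi after thinning before the choice. They were 47.5%, 51.4% and 7.23% in standard sham, ActD sham and 3 dpi when thinned after it, and 40.7% and 44.1% in standard sham and 14 dpi with at least 2 UMIs of Lyve1.

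TMM scaling gave 7.42% of genes lower in standard sham over ActD sham, 21.3% higher and 9.97% lower in 3 dpi over ActD sham, and 8.03% higher and 25.8% lower in 14 dpi over 3 dpi. With genes of at least 20 UMIs, 4.22% were higher and 9.31% lower in 14 dpi over ActD sham. The median of infiltrating macrophage genes in standard sham over ActD sham turned from 3.99 to -0.027 without cells rich in neutrophil RNA. The causes of these shifts were not tested. Conditions could not be paired, since each had 1 library and the labels carry no replicate numbers, whereas both edgeR comparisons paired the classes within each library through the library block. With 1 library per condition, differences between conditions cannot be told apart from differences between libraries, and the 3 dpi cells rest on few UMIs of the genes that chose them.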

Other observations

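Cells were also called male or female from Y-linked and Xist RNA. Of chosen cells with such a call, 34.7% of 49 in standard sham, 32.3% of 62 in ActD sham, 72.1% of 154 at 3 dpi and 52.4% of 21 at 14 dpi were male. The same shares in microglia-gated cells were 42.5%, 44.6%, 73.3% and 47.3%. RNA of both sexes was seen in 47 of the 235 chosen cells at 3 dpi, and in 5, 2 and 2 chosen cells of standard sham, ActD sham and 14 dpi.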
